A study of Mus musculus with 14 samples.

Results

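The 59 genes described here drive or report cell division: the E2F factors, their pocket protein partners, inhibitors of cyclin-dependent kinases (CDKs), cyclins and CDKs, the proteins that license and copy DNA, and the checkpoint and mitotic machinery. They were listed by name among the 21900 protein-coding genes of the mouse gene table. A member was called bound in a peak list when the centre of a peak lay within 5 kb of its start. Of the 59 genes, 45 could be assessed at a given start, and 9 more, for which no start was given, at either end of the gene. Cdkn1b, Ccne2, Cdc25c, Pole and Aurka could not be assessed.

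The lists come from chromatin immunoprecipitation and sequencing of Sin3A and Sin3B in C2C12, a mouse muscle cell line of C3H background whose dividing myoblasts can be made to fuse into multinucleate myotubes. Myoblasts were kept in 10% fetal bovine serum. Myotubes came from confluent cultures in 2% horse serum and were taken apart from undifferentiated cells by means of dilute trypsin. Sin3A was immunoprecipitated in 2 myoblast and 2 myotube samples and Sin3B in 2 and 5, and 3 input samples were not analysed here. All are 1 line, with no genetic change named, and the labels give the same catalogue number for the Sin3A and the Sin3B antibody, with different lots.

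Within a group all files hold the same peaks, which leaves 1 list per group (n = 1) and no measure of replicate error. Sin3A had 691 peaks in the myoblast list and 759 in the myotube list, and Sin3B 2387 and 3769. Read depth is unknown, so a longer list, a deeper library and a looser threshold cannot be told apart, and a missing peak does not show that a protein was absent. The main counts are therefore given beside the share of all protein-coding genes bound in the same list. No test between lists or between gene groups was possible with 1 list each, and no such difference is called. The lists hold no expression values, so the labelled stages were not checked against muscle markers.

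Sin3A and Sin3B are scaffold proteins that hold histone deacetylases and are brought to genes by sequence-specific factors. Genes needed for S phase and mitosis are switched on by activating E2F factors in dividing cells. In cells that leave the cycle they are held silent by E2F4 with the pocket proteins p130 and p107, within the DREAM complex, and by the retinoblastoma protein. Fusion of myoblasts into myotubes is a textbook case of such an exit, since the nuclei of a myotube no longer divide.

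No source used here names the genome build of the lists, and the gene starts at hand (RefSeq, GRCm38.p6) did not meet the peaks as they stood. Each 10 Mb block of a chromosome was therefore moved, in steps of 1 kb and by up to 8 Mb, to where most peak centres of all 4 lists lay within 1 kb of a start, and was kept when at least 50% did. Of 258 blocks 231 were kept, with 6552 of the 7606 peaks (86.1%), of which 74.9% lay within 1 kb of a start. In the blocks of the 45 genes a median of 77.8% did, against 27.0% at the next best move. For 5 of them, Ccnb1, Mcm3, Mcm10, Chek1 and Mad2l1, and for Ccnd1 among the genes assessed at an end, the chosen move led the next best by fewer than 5 peaks, so their calls rest on an ambiguous placing. Mcm3 was a tie, with 3 of 5 peaks at either move. Without such blocks Sin3A was found at 10 members in the myoblast list and 11 in the myotube list, and Sin3B at 15 and 26. Distances below were read after a fine adjustment of each block to the median offset of its peaks, and calls before it. Peak positions are in the build of the files.

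Most of the cell cycle genes had a Sin3 peak close to their start. In at least 1 list, 33 of the 45 genes (73.3%) were bound, against 23.3% of the 15801 protein-coding genes assessed in the same way. Sin3B in myotubes accounted for most, with 30 of 45 genes (66.7%, 95% exact binomial interval 51.0 to 80.0%) against 18.9% of all genes. Sin3B in myoblasts was found at 16 (35.6%, 21.9 to 51.2%) against 12.3%. Sin3A was found at 11 (24.4%, 12.9 to 39.5%) in myoblasts against 2.12% of all genes, and at 12 (26.7%, 14.6 to 41.9%) in myotubes against 4.25%. These Clopper-Pearson intervals treat the genes as independent draws, although the genes are a fixed list chosen with earlier results of these data known. They measure no replicate error. Of the 9 genes assessed at either gene end, Sin3A was found at 2 in myoblasts and 4 in myotubes, against 1.71 and 3.46% of the 2976 protein-coding genes without a given start. Sin3B was found at 5 and 8 of the 9, against 10.4 and 16.7%.

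**Figure D1:**
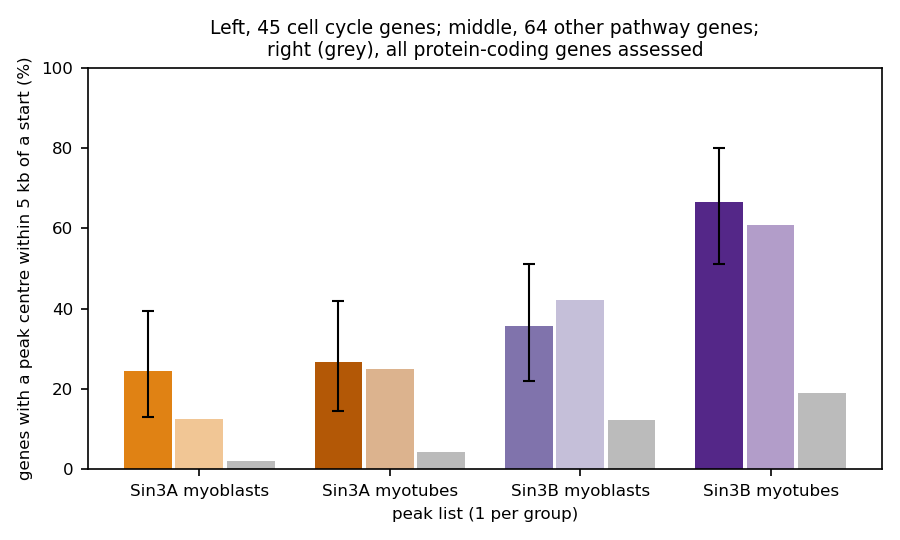
Share of genes with a peak centre within 5 kb of a start (y axis, %) in each of the 4 lists (x axis), for the 45 cell cycle genes assessed at a start (left bars, with 95% exact binomial intervals), the 64 other pathway genes (middle) and all 15801 protein-coding genes assessed (grey). The left bars reach 24.4, 26.7, 35.6 and 66.7%, and the grey bars 2.12, 4.25, 12.3 and 18.9%.

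The genes were also often shared between lists. Of the 45, 10 (22.2%) were bound in exactly 3 lists, against 2.27% of all protein-coding genes, and 16 (35.6%) in exactly 2, against 8.44%. In exactly 1 list there were 7 (15.6%), against 12.1%. None of the 45 was bound in all 4, a pattern that 0.449% of all genes showed. Of the 9 genes assessed at a gene end, 1 was, namely Ccna2, which encodes cyclin A2.

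**Figure D2:**
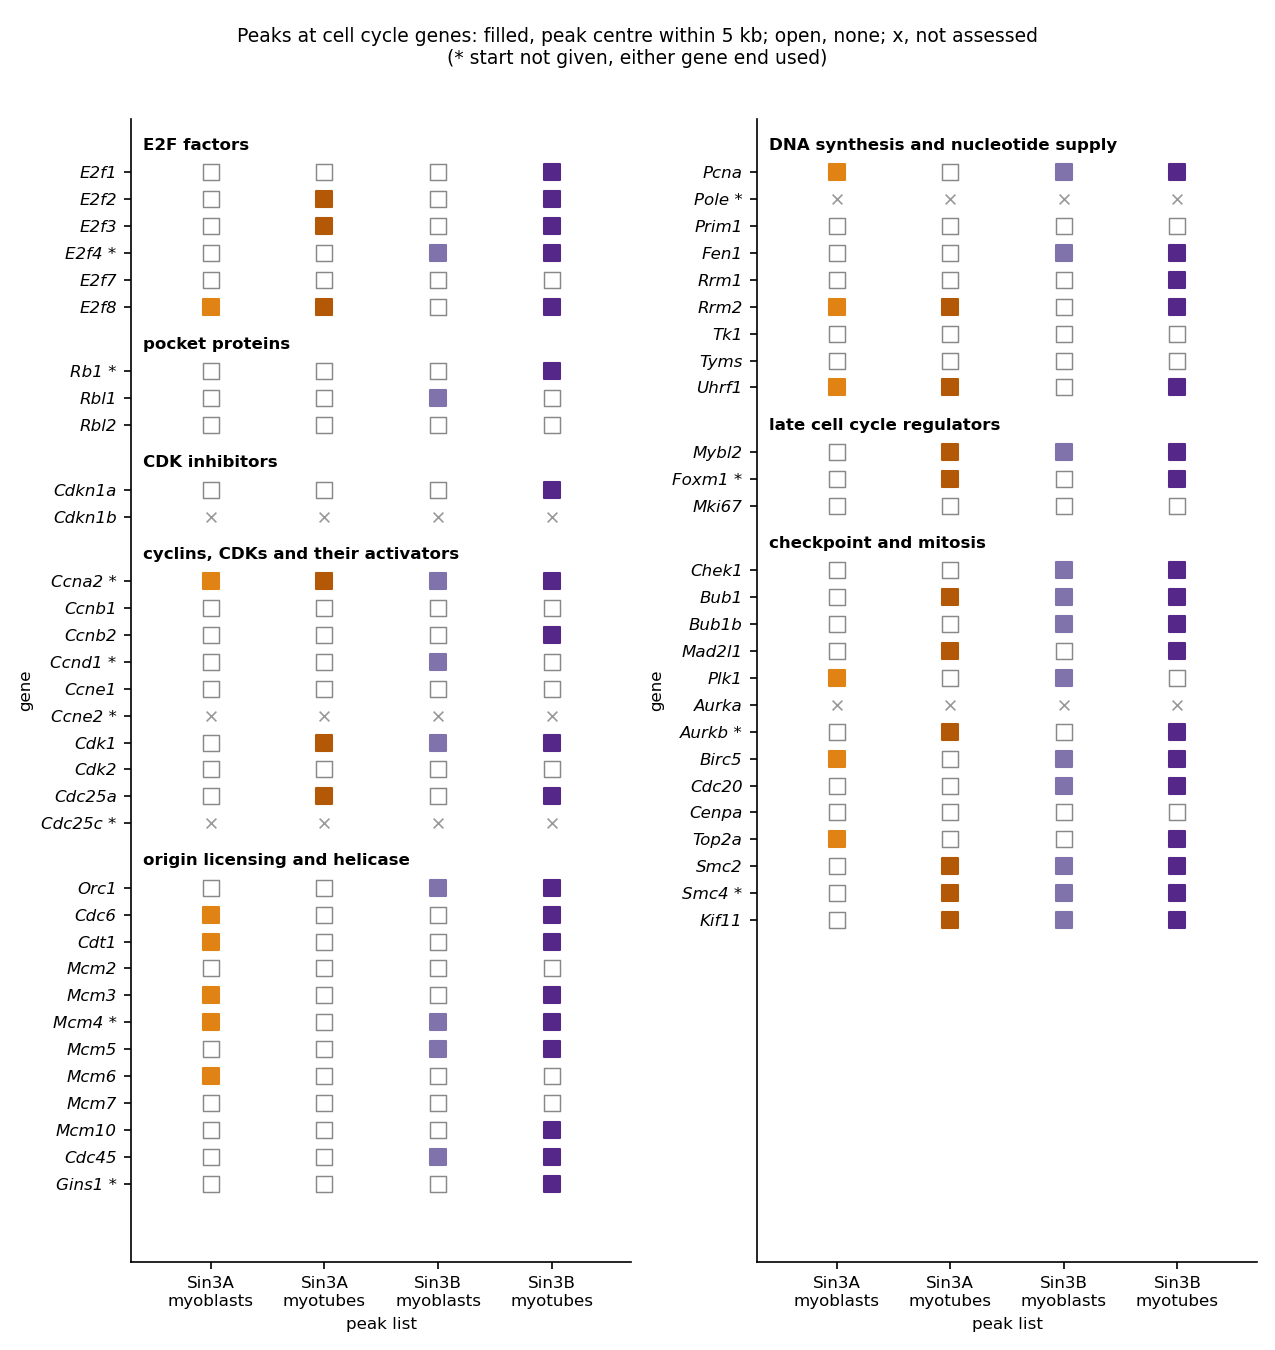
Each row is a cell cycle gene, grouped by role, and each column a peak list. Filled squares mark a peak centre within 5 kb of the start, open squares no such peak and crosses genes that were not assessed, and an asterisk marks genes with no given start, assessed at either gene end. The Sin3B myotube column is the fullest, with 30 of 45 genes that have a start and 8 of 9 of the others.

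Promoters are shown for 6 of the 10 genes bound in 3 lists, those whose peak centres came closest to the start before the fine adjustment (after it, Kif11 came to 2 bp). Of 71 peak centres at members with a given start, 44 (62.0%) lay inside the gene before the adjustment and 45 (63.4%) after it. The bases before a start therefore need not hold the peaks. Each line gives the 250 bases before the start from RefSeq (GRCm38.p6, a later build than the peaks appear to use), read 5′ to 3′ along the gene. Capitals mark, on either strand, the E2F core TTTNNCGC, the cell cycle homology region TTTGAA bound by DREAM, and the CCAAT box bound by NF-Y.
E2f8 (chr7:48881597-48881846, minus strand): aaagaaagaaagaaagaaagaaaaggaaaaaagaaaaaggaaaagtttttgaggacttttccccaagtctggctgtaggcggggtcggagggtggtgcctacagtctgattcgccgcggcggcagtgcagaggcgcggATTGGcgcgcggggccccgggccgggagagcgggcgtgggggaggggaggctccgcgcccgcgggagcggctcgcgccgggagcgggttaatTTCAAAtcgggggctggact
Smc2 (chr4:52438971-52439220, plus strand): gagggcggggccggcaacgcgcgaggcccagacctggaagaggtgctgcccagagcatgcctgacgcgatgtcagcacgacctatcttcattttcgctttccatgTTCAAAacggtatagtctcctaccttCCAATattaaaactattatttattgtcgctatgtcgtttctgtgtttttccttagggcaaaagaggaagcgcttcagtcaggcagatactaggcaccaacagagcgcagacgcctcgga
Uhrf1 (chr17:56304063-56304312, plus strand): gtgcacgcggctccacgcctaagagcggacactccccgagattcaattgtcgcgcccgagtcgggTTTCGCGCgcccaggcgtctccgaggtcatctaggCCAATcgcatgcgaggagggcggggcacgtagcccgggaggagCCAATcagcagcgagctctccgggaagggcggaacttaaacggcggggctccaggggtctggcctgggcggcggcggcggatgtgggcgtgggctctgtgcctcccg
Rrm2 (chr12:24708004-24708253, plus strand): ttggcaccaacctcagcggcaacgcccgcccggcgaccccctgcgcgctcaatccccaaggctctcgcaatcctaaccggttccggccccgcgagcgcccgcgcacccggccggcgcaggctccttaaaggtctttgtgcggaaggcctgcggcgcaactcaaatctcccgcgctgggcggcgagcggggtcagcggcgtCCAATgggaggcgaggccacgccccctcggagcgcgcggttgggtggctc
Birc5 (chr11:117848987-117849236, plus strand): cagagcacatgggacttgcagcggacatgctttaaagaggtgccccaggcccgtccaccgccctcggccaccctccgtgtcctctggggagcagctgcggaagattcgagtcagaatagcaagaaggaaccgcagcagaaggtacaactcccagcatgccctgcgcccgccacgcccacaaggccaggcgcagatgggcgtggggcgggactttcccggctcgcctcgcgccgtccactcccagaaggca
Cdk1 (chr10:69352913-69353162, minus strand): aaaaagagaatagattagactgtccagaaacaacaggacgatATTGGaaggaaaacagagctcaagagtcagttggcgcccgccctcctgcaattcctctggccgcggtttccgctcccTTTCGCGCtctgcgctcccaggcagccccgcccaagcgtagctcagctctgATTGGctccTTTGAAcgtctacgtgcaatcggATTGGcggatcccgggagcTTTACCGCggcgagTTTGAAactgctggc

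These 6 promoters differed in what they hold. Cdk1, the kinase that starts mitosis, had both kinds of cell cycle element, with the E2F core beginning 131 and 29 bases before the start, TTTGAA at 71 and 15 bases, and 3 CCAAT boxes at 208, 80 and 48 bases. Uhrf1, which helps copy DNA methylation, had the E2F core at 185 bases and CCAAT boxes at 150 and 107. E2f8 and Smc2 had TTTGAA, at 20 and 145 bases on the opposite strand, and 1 CCAAT box each, at 112 and 119 bases. Rrm2 had a CCAAT box at 50 bases and Birc5 none of the motifs in these letters. A match is a description of the sequence and was not tied to a peak.

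Of the 5 E2F genes assessed at a start, 4 had Sin3B in myotubes, against 18.9% of all genes, and 0 in myoblasts, against 12.3%. E2f1, E2f2 and E2f3 encode activating members, and all 3 had a Sin3B peak in myotubes and none in myoblasts. A lack of this kind was common, since 46.8% of all genes with Sin3B in myotubes also had it in myoblasts. At E2f2 the Sin3B peak was 1032 bp wide (chr4:135728140-135729171 in the build of the files) with its centre 452 bp inside the gene, and a Sin3A myotube peak of 481 bp lay within it. E2f3 had a Sin3A myotube peak of 844 bp and a Sin3B myotube peak of 868 bp, centred 41 bp before and 192 bp after the start. The E2f1 peak was narrow, at 209 bp, narrower than all but 1.57% of its list. E2f8, an atypical repressor, was the E2F gene with the most lists: Sin3A in myoblasts (614 bp), Sin3A in myotubes (487 bp) and Sin3B in myotubes (567 bp), with centres 344, 26 and 59 bp inside the gene. E2f7, its close relative, had no peak in any list. E2f4, the main repressive E2F of non-dividing cells, had Sin3B peaks of 706 bp in myoblasts and 1095 bp in myotubes at one gene end (chr8:107820988-107822082 for the wider).

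The pocket protein genes each showed a different pattern. Rbl1, which encodes p107, had a peak in Sin3B myoblasts alone (504 bp, chr2:157030015-157030518, centre 64 bp inside the gene). Rbl2, which encodes p130, had none. Rb1 had a Sin3B myotube peak of 906 bp at one gene end (chr14:73725449-73726354). With 3 genes, nothing is said of the group. Of the CDK inhibitors, Cdkn1a, which encodes p21 and is induced as myoblasts leave the cycle, had 2 Sin3B myotube peaks and none in the other lists. They were 757 and 992 bp wide (chr17:29230685-29231441 and chr17:29231617-29232608), with centres 383 and 1433 bp inside the gene, and were thus listed side by side downstream of the start.

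Of the cyclin and CDK genes, some had peaks in several lists and others had none. Cdk1 was bound in 3 lists at nearly the same place, with Sin3A myotube (761 bp), Sin3B myoblast (546 bp) and Sin3B myotube (820 bp) peaks centred 16, 0 and 52 bp from the start (widest at chr10:68815051-68815870). Ccna2 had a peak in every list, of 649 bp for Sin3A and 446 bp for Sin3B in myoblasts, and of 568 bp for Sin3A and 729 bp for Sin3B in myotubes, all overlapping and centred 1410 to 1616 bp from the nearer gene end. Cdc25a, the phosphatase that activates CDK2, had Sin3A (340 bp) and Sin3B (545 bp) peaks in myotubes only. Ccnb2 had 1 Sin3B myotube peak (643 bp, centre 121 bp inside the gene). Ccnd1, the gene of cyclin D1, had 1 Sin3B peak in myoblasts (995 bp, chr7:152124810-152125804, at one gene end) and none in myotubes, in a block where 6 of 9 peaks met a start at the chosen move and 4 at the next best. No peak was found at Ccnb1, Ccne1 or Cdk2.

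Of the 10 genes assessed at a start that license origins or form the replicative helicase, 4 (40%) had a Sin3A peak in myoblasts, against 2.12% of all genes, and 0 in myotubes, against 4.25%. At further origin and helicase genes outside the 59, Sin3A was found at 1 of 9 in myoblasts (Orc6) and 2 of 9 in myotubes (Mcm8 and Orc6). Sin3B myotube peaks were found at 7 of 10, against 18.9%. Mcm3, whose placing was a tie, is among these 7 and among the 4 with Sin3A in myoblasts. Mcm10, also ambiguously placed, is among the 7. With blocks of 5 Mb in place of 10 Mb, Mcm10 gained a Sin3A myotube peak, so the 0 depends on the block size. Among 10 genes, 0 is also close to the 4.25% of all genes. Cdc6 and Cdt1, which bring the MCM helicase to origins, showed the same pair of lists. Cdc6 had a Sin3A myoblast peak of 436 bp (chr11:98768913-98769348) and a Sin3B myotube peak of 443 bp (chr11:98769078-98769520), centred 256 and 88 bp before the start. Cdt1 had a Sin3A myoblast peak of 577 bp centred 169 bp inside the gene and a Sin3B myotube peak of 786 bp centred 8 bp before the start (chr8:125091467-125092252). In both genes the Sin3A and Sin3B peaks overlapped although they came from different stages.

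Among the MCM subunits, Mcm5 had wide Sin3B peaks at both stages, of 1067 bp in myoblasts and 840 bp in myotubes (chr8:77633268-77634107). Mcm6 was the member with Sin3A in myoblasts and no other peak (386 bp, chr1:130255881-130256266). Mcm4 had a Sin3A myoblast peak of 730 bp and Sin3B peaks of 456 bp in myoblasts and 896 bp in myotubes at one gene end (chr16:15637088-15637983). Mcm3 was listed with Sin3A in myoblasts (306 bp) and Sin3B in myotubes (319 bp), but its own peaks helped to place it: when the members' starts were left out of the placing, both calls were lost. Mcm10 had 1 Sin3B myotube peak (320 bp), and Mcm2 and Mcm7 had none. Cdc45, the helicase activator, had Sin3B peaks of 521 bp in myoblasts and of 776 and 596 bp in myotubes. Orc1, the origin recognition subunit that is made periodically, had Sin3B peaks of 1125 bp in myoblasts and 356 bp in myotubes, and Gins1 a Sin3B myotube peak of 444 bp at one gene end.

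Of the 8 replication fork and nucleotide genes assessed, 5 (62.5%) were bound, against 23.3% of all genes, each with Sin3B in myotubes, against 18.9%. Rrm2, the regulated subunit of ribonucleotide reductase, had Sin3A peaks of 586 bp in myoblasts and 542 bp in myotubes and a Sin3B myotube peak of 1199 bp (chr12:25392526-25393724), wider than 97.3% of its list. Uhrf1 had the same 3 lists, with 785, 651 and 1092 bp, the last at chr17:56442940-56444031. Its Sin3A myoblast peak was wider than 97.1% of that list. Pcna, the sliding clamp, had Sin3A (497 bp) and Sin3B (376 bp) peaks in myoblasts and a Sin3B peak (471 bp) in myotubes, which all lay inside the gene, at 693, 625 and 620 bp from the start. Fen1, the flap nuclease, had Sin3B peaks of 926 and 1134 bp, and Rrm1 a Sin3B myotube peak of 589 bp. Prim1, Tk1 and Tyms had none.

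Late regulators included Mybl2 and Foxm1, which encode the B-Myb and FoxM1 factors that switch on mitotic genes together with the MuvB core of DREAM. Mybl2 had a Sin3A myotube peak (498 bp) and Sin3B peaks of 798 bp in myoblasts and 605 bp in myotubes, centred 407, 390 and 268 bp inside the gene (chr2:162880135-162880932 for the widest). Foxm1 had Sin3A (470 bp) and Sin3B (738 bp) peaks in myotubes only, at one gene end. Mki67, the gene of the Ki-67 proliferation marker, had none.

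Of 11 checkpoint and mitotic genes assessed at a start, 10 (90.9%) were bound in some list, against 23.3% of all genes. Sin3B was found at 8 (72.7%) in myoblasts, against 12.3%, and at 9 (81.8%) in myotubes, against 18.9%. Sin3A was found at 3 (27.3%) in myoblasts, against 2.12%, and at 4 (36.4%) in myotubes, against 4.25%. Kif11, the spindle motor, held the widest peak at any of the 45 genes, a Sin3B myotube peak of 1365 bp (chr19:37450278-37451642), rank 45 by width among the 3769 of its list. It also had a Sin3A myotube peak of 674 bp and a Sin3B myoblast peak of 598 bp. Bub1, a spindle checkpoint kinase, had the same 3 lists, with widths of 567, 396 and 654 bp and centres 105, 122 and 114 bp inside the gene. Smc2, a condensin subunit, did too, with 618, 564 and 661 bp. Its partner Smc4 had a Sin3A myotube peak of 881 bp and 2 Sin3B peaks at each stage, the widest of 1220 bp (chr3:68808631-68809850), at one gene end.

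Other mitotic genes combined the lists in other ways. Birc5, which encodes survivin, had Sin3A (362 bp) and Sin3B (625 bp) peaks in myoblasts and a Sin3B peak (763 bp, chr11:117710275-117711037) in myotubes. Top2a, the topoisomerase of dividing cells, repeated the pair seen at Cdc6 and Cdt1, with Sin3A in myoblasts (355 bp) and Sin3B in myotubes (679 bp). Plk1, the polo kinase, was bound in myoblasts alone, by Sin3A (235 bp) and Sin3B (420 bp, chr7:129302915-129303334). Chek1, Bub1b and Cdc20 had Sin3B at both stages without Sin3A. Mad2l1 had Sin3A (388 bp) and Sin3B (588 bp) in myotubes only, as did Aurkb at one gene end (688 and 726 bp). Cenpa had no peak.

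Read by stage, Sin3B was mostly listed at cell cycle genes either in both stages or in myotubes only, as it was at genes of all kinds. Of the 3535 genes of all kinds with Sin3B at either stage, 1397 had it at both, 1590 in myotubes only and 548 in myoblasts only. Of the 45 genes, 14 (31.1%) had it at both stages, against 8.84% of all genes, 16 (35.6%) in myotubes only, against 10.1%, and 2 (4.44%), Plk1 and Rbl1, in myoblasts only, against 3.47%. Among genes with a Sin3B myoblast peak, 14 of the 16 members (87.5%) also had one in myotubes, and 1397 of 1945 genes of all kinds (71.8%). In the other direction the shares lay close together, at 14 of 30 members (46.7%) and 1397 of 2987 genes (46.8%). The share of Sin3B myotube genes without a listed myoblast peak was thus close to that among all genes.

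For Sin3A, 3 of the 11 myoblast members (27.3%) were also listed in myotubes, close to the 32.5% of all genes with Sin3A in myoblasts. In the other direction it was 3 of 12 (25%), against 16.2%. In myoblasts only there were 8 (17.8%), against 1.43% of all genes: Birc5, Cdc6, Cdt1, Mcm3, Mcm6, Pcna, Plk1 and Top2a. With the members' starts left out of the placing there were 7 (15.6%), since Mcm3 was lost. In myotubes only there were 9 (20%), against 3.56%: Bub1, Cdc25a, Cdk1, E2f2, E2f3, Kif11, Mad2l1, Mybl2 and Smc2. E2f8, Rrm2 and Uhrf1 were bound at both (6.67%, against 0.69%), so that 20 of 45 (44.4%) had Sin3A at either stage, against 5.68%. The first set holds 4 of the 10 licensing and helicase genes assessed at a start, the clamp Pcna and 3 mitotic genes. The second holds 2 E2F genes, Cdk1 and Cdc25a, Mybl2 and 4 mitotic genes. Whether roles and stages go together was not tested.

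The proteins shared 12 of the 45 genes in myotubes and 3 in myoblasts, against 3.65 and 1.12% of all genes. All 12 members with Sin3A in myotubes also had Sin3B there, as did 85.7% of the 672 genes of all kinds with Sin3A in myotubes. In myoblasts 3 of 11 (27.3%) had both, namely Birc5, Pcna and Plk1, against 52.8% of 335. A further pattern joined stages: 7 members (15.6%) had Sin3A in myoblasts, Sin3B in myotubes and no Sin3B in myoblasts, against 92 genes of all kinds (0.582%). They were Cdc6, Cdt1, E2f8, Mcm3, Rrm2, Top2a and Uhrf1, of which Mcm3 rests on a tied placing. The 7 genes are drawn from the counts already given and add no independent evidence.

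When 2 lists had a peak at the same member with a given start, their closest peaks overlapped. Over the 6 pairs of lists there were 46 such cases, and in all 46 the closest peaks of the 2 lists overlapped. Over all protein-coding genes the same was true of 2614 of 2837 cases (92.1%). Centres at members lay a median of 113.5 bp apart. Among these, the closest were the Sin3B peaks of the 2 stages at Fen1, 1 bp apart, and the farthest the Sin3A myoblast and Sin3B myotube peaks at Uhrf1, 327 bp apart and still overlapping over 612 bp. Of the members assessed at a gene end, Mcm4 had its Sin3A and Sin3B myoblast peaks 472 bp apart, with 121 bp shared. These distances are between peaks of the same build and do not depend on how the lists were placed on the genes.

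Of the peak centres counted within 5 kb of a member's start, nearly all lay within 1 kb of it. The 71 pairs of a peak and a gene with a given start had their centres between -701 and 1433 bp of the start (positive values lie inside the gene), with a median of 70 bp, and 70 lay within 1 kb. Over all protein-coding genes, the pairs within 1 kb were 78.5% and 90.7% for Sin3A in myoblasts and myotubes. For Sin3B they were 86.9% and 89.0%. For Sin3B in myotubes the median was 112 bp and 24 of 32 centres (75%) lay inside the gene, close to the 130 bp and 66.5% of all protein-coding genes in that list. For Sin3A in myotubes the median was 38.5 bp at members and 120 bp overall. In myoblasts it was 152 bp at members and 50.5 bp overall for Sin3A, and -4.5 bp and 22 bp for Sin3B. Before the fine adjustment the Sin3B myoblast median at members was 352 bp, with 10 of 16 centres inside the gene, against 6 after it. These positions carry the error of the placing: in the members' blocks its fine adjustment was a median of 223 bp and at most 901 bp, so that differences of 100 to 200 bp between genes should not be read. For centres this close to a start, the side of the start should not be read either. At Mcm3, Chek1 and Mad2l1, in blocks with few peaks, the members' own peaks set part of that adjustment. In the Cdk1 block, with 43 peaks, the adjustment was 400 bp. The Sin3B myoblast centre at Cdk1 lay 400 bp from the start before it, so its 0 bp follows from the adjustment. Peaks were counted only within 5 kb of a start, and the placing itself favours peaks near starts. Closeness to a start is therefore in part built in, for members as for all genes.

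**Figure D3:**
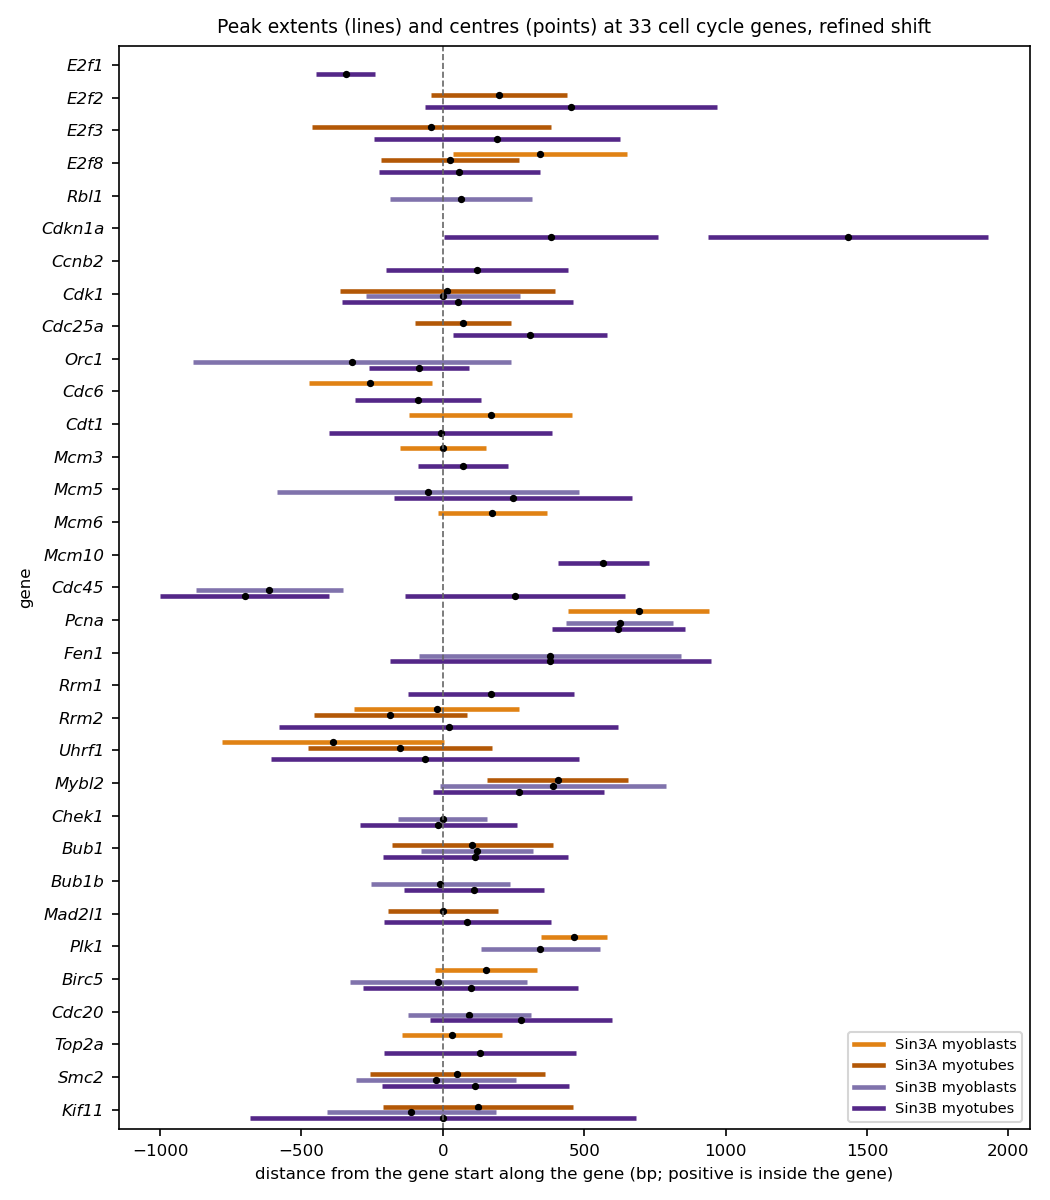
Peak extents (lines) and centres (black points) at the 33 cell cycle genes bound at a given start, coloured by list, against the distance from the start in bp along the gene (x axis). Positions use the finely adjusted placing. All centres lie between -701 and 1433 bp, and peaks of different lists at one gene overlap.

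Peaks at members were of ordinary to somewhat larger width. Median widths were 436 bp at members and 439 bp at all protein-coding gene starts for Sin3A in myoblasts, and 554.5 and 471 bp for Sin3A in myotubes. For Sin3B they were 533.5 and 510.5 bp in myoblasts and 650 and 551.5 bp in myotubes. Member peaks ranged from 209 bp (E2f1) to 1365 bp (Kif11), so the groups overlap widely.

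**Figure D4:**
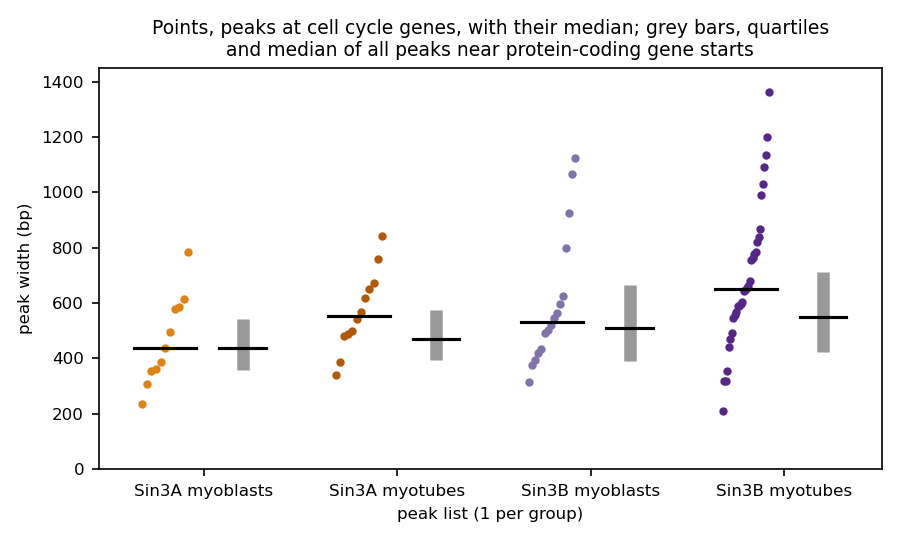
Width in bp (y axis) of each peak at a cell cycle gene (points, with their median as a line) in the 4 lists, beside the quartiles and median of all peaks near protein-coding gene starts (grey). Member medians are 436, 554.5, 533.5 and 650 bp against 439, 471, 510.5 and 551.5 bp, and the points spread across and beyond the grey bars.

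A peak near a member may belong to a neighbour, since another gene can start close by. For 31 of the 33 bound members, every peak centre was closer to the member's start than to any other given start of a protein-coding gene. The exceptions were Orc1, where both peaks were closer to Prpf38a, and Cdc45, where 2 of 3 peaks were closer to Ufd1. At Fen1 both peaks became closer to Tmem258 (188 and 189 bp against 379 and 380 bp) with the finely adjusted placing.

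Promoters of the members were richer in E2F and cell cycle motifs than promoters at large, but within the members the motifs did not go with binding in 1 direction. The core TTTNNCGC was found, on either strand, in 17 of the 53 member promoters (32.1%; 47 genes, from 250 bases before to 50 after the start) and in 6.24% of 21263 promoters of protein-coding genes. TTTGAA was found in 34.0% against 16.0%, CCAAT in 67.9% against 38.2%, the Sp1 box GGGCGG in 79.2% against 46.2%, and the E-box CAGCTG of MyoD and myogenin in 17.0% against 15.6%. Matches of different motifs can overlap. Over all 32851 promoters of the table the shares were 5.17, 17.9, 37.4, 35.7 and 16.3%.

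Across all assessed protein-coding genes, those with the E2F core and those with the Sp1 box were more often listed than those without. Sin3B in myotubes was found at 31.4% of the 1147 genes with it and 17.9% of the 14654 without, and Sin3A in myotubes at 9.07% and 3.88%. In myoblasts the shares were 19.7% and 11.7% for Sin3B and 4.71% and 1.92% for Sin3A. With and without the Sp1 box the shares were 26.4% and 11.4% for Sin3B in myotubes, 6.08% and 2.41% for Sin3A in myotubes, 15.3% and 9.33% for Sin3B in myoblasts, and 3.04% and 1.19% for Sin3A in myoblasts. Of the 45 members, 38 had the Sp1 box, and for Sin3B the direction was reversed. With and without it the member shares were 63.2% and 85.7% for Sin3B in myotubes and 31.6% and 57.1% in myoblasts. For Sin3A they were 31.6% and 0% in myotubes and 26.3% and 14.3% in myoblasts. Among the members, Sin3B in myotubes was found at 10 of 16 genes with the core (62.5%) and 20 of 29 without it (69.0%), and Sin3A in myotubes at 5 of 16 (31.2%) and 7 of 29 (24.1%). In myoblasts, Sin3B was found at 4 of 16 (25%) with the core and 12 of 29 (41.4%) without, and Sin3A at 5 of 16 and 6 of 29 (20.7%). For TTTGAA the shares over all genes were 16.6% with and 19.4% without for Sin3B in myotubes, and 12 of 17 (70.6%) and 18 of 28 (64.3%) among the members. For Sin3B in myoblasts they were 11.7% and 12.4% over all genes, and 8 of 17 (47.1%) and 8 of 28 (28.6%) among the members. For Sin3A the member shares with and without TTTGAA were 17.6% and 28.6% in myoblasts and 35.3% and 21.4% in myotubes. With and without CCAAT, the Sin3A member shares were 25.8% and 21.4% in myoblasts and 32.3% and 14.3% in myotubes. The Sin3B member shares were 35.5% and 35.7% in myoblasts and 67.7% and 64.3% in myotubes. Over all genes the CCAAT shares lay close together, at 19.3% and 18.6% for Sin3B in myotubes. With the E-box, found at 9 members, the member shares were higher than without it in all 4 lists, and the shares over all genes lower. For Sin3B in myotubes they were 77.8% and 63.9% among members and 16.9% and 19.3% over all genes. These shares are descriptions, and base composition and the kind of promoter differ between the genes set against each other.

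Other genes of the same pathways, 87 in a list of DREAM components, further cyclins, CDKs and inhibitors, origin proteins, polymerases and mitotic proteins, were also counted. Like the members, they were listed with earlier results of these data known, so they are no independent check on the members. Of the 64 assessed at a start, 44 (68.8%) were bound in some list, against 23.3% of all genes. Sin3B was found at 39 (60.9%) in myotubes, against 18.9%, and at 27 (42.2%) in myoblasts, against 12.3%. Sin3A was found at 16 (25%) in myotubes, against 4.25%, and at 8 (12.5%) in myoblasts, against 2.12%. By role, and beside the same 18.9%, Sin3B in myotubes was found at 18 of 22 mitotic genes, 9 of 16 DNA synthesis genes, 5 of 9 origin genes, 5 of 11 cyclin, CDK and inhibitor genes and 2 of 6 DREAM genes.

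In 3 or more lists, where 2.27% (exactly 3) and 0.449% (all 4) of all genes stood, there were 14: Lin54, Ccnd3, Orc6, Mcm8, Rpa2, Ttk, Ndc80, Cenpe, Cenpf, Cenph, Ncapd2, Ncapg, Nek2 and Hmmr. Ncapg, a condensin subunit, and Ndc80, a kinetochore protein, had peaks in all 4 lists, as did Orc6. At Ndc80, Ncapg, Cenph, Cenpf, Nek2 and Ttk the chosen move led the next best by fewer than 5 peaks, as at Smc1a. Calls at these genes therefore rest on an ambiguous placing. In the Ndc80 block 18 of 35 peaks met a start, against 16 at the next best move, and in the Ncapg block 10 of 10, against 6. Ncapg peaks were 542 and 574 bp wide for Sin3A and 655 and 1244 bp for Sin3B, in myoblasts and myotubes. At Ndc80 they were 290 and 480 bp for Sin3A and 247 and 625 bp for Sin3B. Lin54, the DNA-binding subunit of DREAM that reads the TTTGAA element, had Sin3A (469 bp) and Sin3B (578 bp) peaks in myotubes and a Sin3B peak (248 bp) in myoblasts, all overlapping at its start. Before the fine adjustment, some of these peaks were closer to another protein-coding gene: all 3 at Hmmr to Nudcd2 (148, 526 and 383 bp), the myoblast peak of Ncapd2 to Mrpl51 (158 bp) and that of Ccnd3 to Taf8 (193 bp, against 2953 bp to a Ccnd3 start). The Sin3A myotube peak of Smc1a was closer to Ribc1. The Sin3A myotube genes outside this set were Espl1, Pole2, Prc1 and Smc1a.

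For 12 of the 45 members no peak was found: E2f7, Rbl2, Ccnb1, Ccne1, Cdk2, Mcm2, Mcm7, Prim1, Tk1, Tyms, Mki67 and Cenpa. Some of these absences are less certain than others. Tyms and Cenpa lie in a block where 50.8% of the peaks met a start, Ccnb1 in one with 50% and Mcm7 in one with 59.2%, which leaves room for a second offset inside the block. With blocks of 5 Mb in place of 10 Mb, Cenpa and Mki67 gained a Sin3B myotube peak and Mcm10 a Sin3A myotube peak. Aurka and Cdkn1b could then be assessed, while E2f8 no longer could. Aurka had a peak in each list but Sin3A in myoblasts, and Cdkn1b a Sin3B myoblast peak only. Cdkn1b had the same call with blocks kept at 40% and with blocks of 20 Mb.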

How the data were processed

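Peak lists of 11 immunoprecipitated samples were analysed. The deposited files have no header line and give chromosome, start and end of each peak alone, with no score. Files of a group were identical, so 4 lists were used. No source used here names the peak caller, its threshold, the genome build or the read depth. Samples were grouped by their labels.

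Gene starts came from RefSeq (GRCm38.p6; 27025 genes) and were matched to the peaks in 10 Mb blocks, each moved by up to 8 Mb to the best match and kept at 50% of peak centres within 1 kb of a start. A gene was bound when a peak centre lay within 5 kb of any of its starts. For 12 members with no given start, either gene end was used and reported apart. Every assessed member could be named, and other pathway genes where bound in at least 3 lists or by Sin3A in myotubes. The members and gene lists were chosen with earlier results of these data known.

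With 1 list a group no test was made. Shares have 95% Clopper-Pearson intervals (scipy 1.17.1 under Python 3.11.15). Distance, block size, threshold, peak width, number of peaks and the starts used were varied. Input samples were not analysed here.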

Additional observations from a re-analysis of the deposited data

How the results depend on the processing

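Over 16 alternative settings, 171 of 176 counts stayed within 1.5 times the reported count. With the 691 widest peaks of each list, Sin3B was found at 4 members in myoblasts and 9 in myotubes, at 2 at both stages and at 7 in myotubes only; fewer peaks enter there by construction. Those shares were 8.89 and 20%, against 4.11 and 4.12% of all genes. With blocks of 20 Mb, 38 members could be assessed and 5 had Sin3A in myoblasts only: Cdc6 and Top2a were no longer assessed, and Mcm3, for which the cause was not tested, lost its call. The members' share exceeded that of all genes in all 16 settings for each list, by 9.39 to 14.8 times for Sin3A in myoblasts, 5.65 to 8.04 in myotubes, and 2.16 to 3.59 and 2.98 to 4.85 for Sin3B. Without the members' starts in the placing, Mcm3 was lost, which left 10 members for Sin3A in myoblasts and 29 for Sin3B in myotubes. No paired analysis was possible because the files of a group are identical and the counts come from no test, and for the same reason no replicate could be left out. Depth and the calling threshold are unknown, so absences rest on the lists alone.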
